A study of Mus musculus with 4 samples.

Results

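Expression of NF-κB pathway genes was examined in Th2 cells, the CD4 helper T cells that make IL-4, IL-5 and IL-13, after culture with or without SH-2251. The genes were listed by name for their known place in the pathway: the subunits of the transcription factor, the proteins that hold it back or release it, and genes it is known to switch on. The list was made with earlier results of these data known. Of 34 genes listed, 32 had an array probe that could be named through its RefSeq accession, and Nfkb1 and Map3k8 had none. The single probe for Rel, which encodes c-Rel, stayed too close to background on every array to be used. The remaining 31 genes, of 18539 named genes on the array, were well above background on all 4 arrays, so none of them entered through one condition only.

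All cells came from the spleens of female C57BL/6J mice, which were young adults. CD4 T cells were activated for 2 days by plate-bound anti-TCR-β together with anti-CD28, with IL-2 and IL-4 in the medium, and were then kept for 3 days in both cytokines. The SH-2251 groups received SH-2251, a thioamide-related compound made to inhibit IL-5 production, in both phases, and the control groups did not. By the labels SH-2251 was at 1 µM during the first phase but 1 mM during the second, whereas the study's methods give a lower dose. The labels name splenic CD4 T cells as the starting population and the methods name naive CD4 T cells. Restimulated cells were exposed to immobilized anti-TCR-β for 4 h before RNA was taken, and resting cells were not. The 4 groups, resting control, resting SH-2251, restimulated control and restimulated SH-2251, had 1 array each, and the labels do not give the number of mice behind an array. A difference between arrays therefore has no replicate check, and no test or p-value is given.

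The arrays measured transcripts by the intensity of 1 dye (Cy3). A single slide carried the 4 arrays, and it was scanned once. Values are log2 signals minus the 75th percentile of the array, which lay between 499 and 614 intensity units, and 56.0% to 56.7% of the probes on an array were well above background. The T cell markers Cd3e, Cd3g, Cd4 and Cd28 were above background on all arrays, as was Gata3, the transcription factor that defines Th2 cells, at log2 signals from 5.22 to 5.87. Restimulation raised all 4 genes listed to check it, and the log2 difference of Nr4a1, an immediate early gene of T cell receptor signalling, was 6.13 without and 6.17 with SH-2251. The sizes were less alike for Egr2, at 4.22 and 4.63, for Ifng, at 5.92 and 4.74, and for Il2, at 3.34 and 1.66, where the resting side of Il2 is a bound. All 7 B cell markers examined were also above background on every array, as were 3 of the 6 myeloid and dendritic cell markers, Csf1r, Cd14 and Fcgr3, whereas Itgax, Itgam and Lyz2 were not well above background on any. In RNA from a mixed population, fewer cells of a type and less RNA per cell cannot be told apart.

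NF-κB is a family of dimeric transcription factors that wait in the cytoplasm, bound by IκB proteins. Engagement of the T cell receptor and CD28 assembles a signalling complex with BCL10 and MALT1, which activates the IκB kinases. These kinases mark IκB for destruction, and the released dimers enter the nucleus and bind κB sites. A slower, noncanonical route runs through the kinase NIK and the processing of the Nfkb2 product p100. Several NF-κB target genes encode its own inhibitors, so that the response limits itself. In T cells the pathway is known for its part in activation, survival and cytokine production.

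The promoters of the members most raised by restimulation are shown first, because most members were higher after restimulation and because κB sites are the sequences that NF-κB reads. The 4 members with the highest response in control cells were Tnfaip3, Nfkbid, Nfkb2 and Nfkbia. The 250 bases before the transcription start of each are given from RefSeq (build GRCm38.p6), 5′ to 3′ on the strand of the gene. Capitals mark matches to the κB consensus, a restricted form of GGGNNNNNCC, on either strand.
Tnfaip3, chr10:19015411-19015660, minus strand: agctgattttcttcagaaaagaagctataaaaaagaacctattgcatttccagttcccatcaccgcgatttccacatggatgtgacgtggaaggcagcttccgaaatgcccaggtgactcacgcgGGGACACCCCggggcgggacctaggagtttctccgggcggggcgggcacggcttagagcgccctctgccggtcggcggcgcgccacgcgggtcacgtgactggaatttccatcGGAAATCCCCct
Nfkbid, chr7:30422156-30422405, plus strand: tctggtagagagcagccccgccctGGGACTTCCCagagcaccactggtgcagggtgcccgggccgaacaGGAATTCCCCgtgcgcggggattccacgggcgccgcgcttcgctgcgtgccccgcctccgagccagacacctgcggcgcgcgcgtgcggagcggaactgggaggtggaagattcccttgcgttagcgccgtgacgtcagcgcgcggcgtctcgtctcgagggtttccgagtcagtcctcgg
Nfkb2, chr19:46304487-46304736, plus strand: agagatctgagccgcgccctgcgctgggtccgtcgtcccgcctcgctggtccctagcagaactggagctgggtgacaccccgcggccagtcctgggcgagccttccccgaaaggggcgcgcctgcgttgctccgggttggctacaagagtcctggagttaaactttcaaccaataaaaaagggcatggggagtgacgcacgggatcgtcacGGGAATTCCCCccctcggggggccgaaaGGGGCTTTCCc
Nfkbia, chr12:55492648-55492897, minus strand: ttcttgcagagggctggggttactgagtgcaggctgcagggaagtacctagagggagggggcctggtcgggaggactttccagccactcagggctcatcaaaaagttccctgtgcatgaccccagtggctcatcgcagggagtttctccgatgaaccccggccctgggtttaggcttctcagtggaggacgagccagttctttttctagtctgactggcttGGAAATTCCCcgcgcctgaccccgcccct

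Each printed window held at least 1 match. In Tnfaip3 the match nearest the start, GGGGATTTCC on the opposite strand, ended 2 bases before it. In Nfkb2 the match GGGGCTTTCC ended 1 base before the start, with overlapping matches that ended 28 and 29 bases before it. The single match in Nfkbia, GGGAATTTCC, ended 19 bases before the start, and those of Nfkbid lay farther away, at 171 and 216 bases. Where a gene has several starts, the window with the most matches is printed, so the matches shown were selected. Of the windows not printed, both of Nfkbid and the single one of Tnfaip3 held no match, and those of Nfkb2 held matches. A palindromic match was counted once on each strand.

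Windows from 250 bases before to 50 after a start were searched on both strands for 32851 starts of 27025 genes. The consensus was found in 9.55% of these genes, or 8.46% of all windows, and in 12 of the 26 measured members that have a window. Of the members at least 2-fold higher after restimulation of control cells, 8 of 14 held a match, namely Bcl10, Nfkb2, Nfkbia, Nfkbid, Nfkbie, Tank, Tnfaip3 and Traf3. Among the other members 4 of 12 did, namely Bcl3, Cyld, Ier3 and Tnip1. The narrower GGGNNTTTCC occurred in 1.89% of all genes (1.63% of windows) and in 7 of the 26 members. The looser GGGNNNNNCC, which contains the other forms, occurred in 53.5% of all genes (50.8% of windows) and in 22 of the 26 members. The members were listed as known NF-κB genes, so these shares are a description, and a match is not a measured binding site. Cd83, Ikbkb, Malt1, Map3k8, Nfkb1, Nfkbiz and Relb have no window in the table.

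The first question was how the pathway responded when Th2 cells met T cell receptor stimulation again. In control cells 18 of the 31 members were at least 2-fold higher after restimulation, against 7.24% of the 12759 genes compared. By the brightest probe of each gene, no member was at least 2-fold lower, against 7.34% of all genes. The median log2 difference of the members was 1.15, whereas that of all genes was -0.06. A difference above 0 was found for 27 members, against 45.2% of all genes. The technical SD of a difference was computed from the error the scanner software gives for each spot. It leaves out any spread between cultures. For the members it was between 0.204 and 0.212 in the 4 comparisons, so a limit of 2 technical SD is nearly a fixed cut on their differences.

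In SH-2251-treated cells 20 of the 31 members were at least 2-fold higher after restimulation, against 7.08% of the 12615 genes compared, and none was at least 2-fold lower, against 6.95%. The median log2 difference was 1.31, whereas that of all genes was -0.05, and 27 members lay above 0, against 46.4% of all genes. The 18 members called in control cells were all called here as well. Bcl3 and Tnip1 were called in SH-2251-treated cells but not in control cells, and the other 11 members were called in neither.

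**Figure D1:**
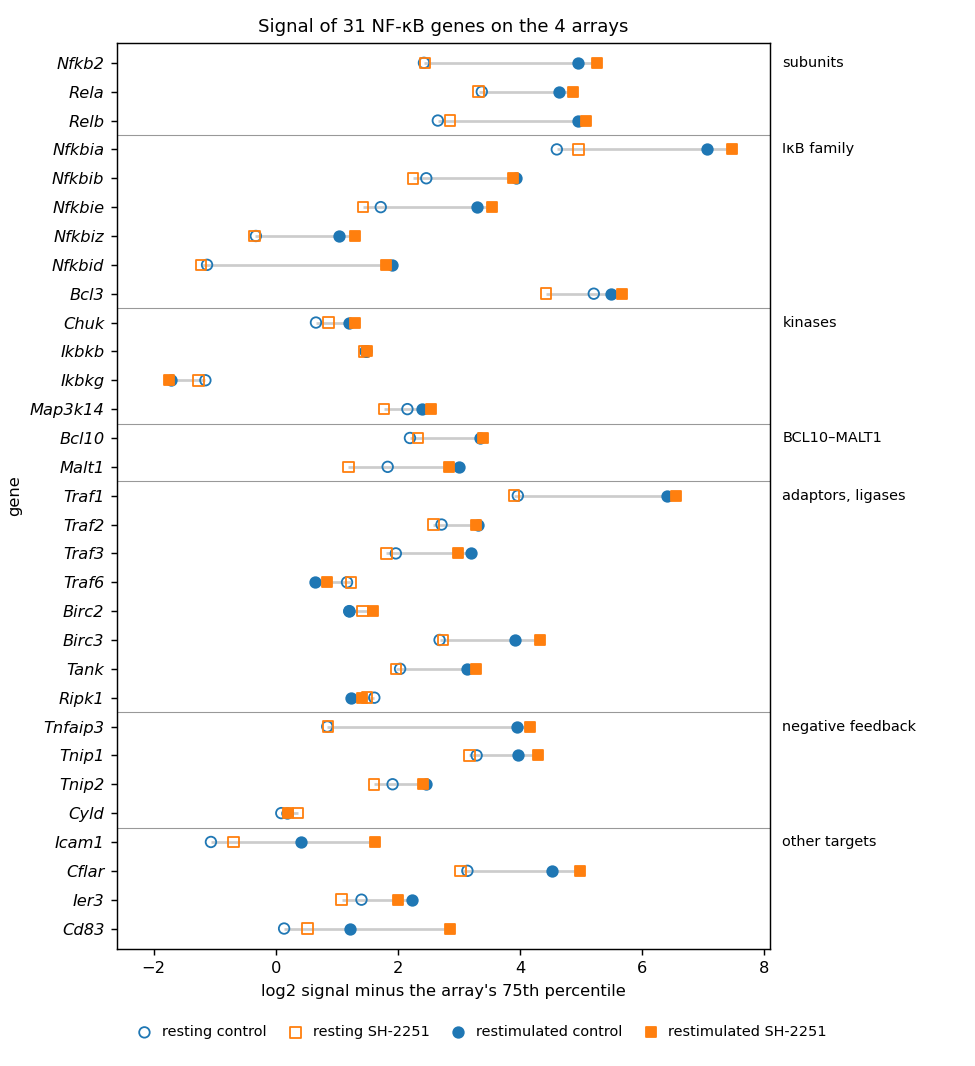
The log2 signal minus the 75th percentile of the array (x axis) is plotted for each of the 31 genes, grouped by role, with open symbols for resting cells, filled symbols for restimulated cells, circles for control and squares for SH-2251. The subunits and most of the IκB family lie farther right after restimulation with either treatment, whereas the 4 kinases keep their place within 2-fold. Each symbol is 1 array.

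The 3 measured subunits of the factor were all higher after restimulation. Nfkb2 encodes p100, which is processed to p52. Its log2 signal was 2.43 in resting control, 2.45 in resting SH-2251, 4.95 in restimulated control and 5.27 in restimulated SH-2251 cells. Both restimulated arrays were far above both resting arrays, 5.75-fold in control and 7.07-fold with SH-2251. Relb, the usual partner of p52, had log2 signals of 2.66 and 2.86 in the resting cells (control, then SH-2251) and of 4.95 and 5.08 in the restimulated cells. The response of Relb was 4.90-fold in control and 4.66-fold with SH-2251. Rela encodes p65, the main activating subunit of the canonical pathway, and moved least of the measured subunits in both treatments. Its signals were 3.38 and 3.32 at rest and 4.64 and 4.87 after restimulation, a rise of 2.41-fold in control and 2.93-fold with SH-2251. In each of these genes both restimulated values lay above both resting values. The share of all genes with this order was not counted, and control and SH-2251 arrays are not replicates of a state.

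The IκB family holds NF-κB in the cytoplasm or, for its nuclear members, modifies its action at promoters. Of the 6 members, 5 were at least 2-fold higher after restimulation in control cells and 6 with SH-2251. Nfkbia, which encodes IκBα, the inhibitor resynthesized in each round of activation, had log2 signals of 4.60 and 4.96 in resting control and SH-2251 cells, and of 7.06 and 7.47 after restimulation. It rose 5.48-fold in control and 5.72-fold with SH-2251. The SH-2251 array was the higher in both states, by 0.35 and 0.42 on the log2 scale.

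Nfkbid encodes a nuclear IκB protein and had the largest response of the family. Its signals were -1.13 and -1.23 at rest and 1.90 and 1.81 after restimulation, which is 8.16-fold in control and 8.19-fold with SH-2251. The responses with and without SH-2251 were thus nearly equal. Nfkbie, which encodes IκBε, stood at 1.72 and 1.43 at rest and at 3.30 and 3.55 after restimulation. Its response was 2.98-fold in control and 4.33-fold with SH-2251, with the lower resting and the higher restimulated value both in SH-2251-treated cells. Nfkbib, which encodes IκBβ, stood at 2.47 and 2.25 at rest and at 3.94 and 3.89 after restimulation, a rise of 2.78-fold and 3.12-fold. Nfkbiz, the gene of a further nuclear family member, IκBζ, stood at -0.33 and -0.35 at rest and at 1.03 and 1.30 after restimulation. It rose 2.56-fold in control and 3.12-fold with SH-2251.

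Bcl3, a nuclear IκB protein that works with p50 and p52, behaved unlike the rest of its family. Its log2 signal was 5.21 in resting control, 4.43 in resting SH-2251, 5.49 in restimulated control and 5.68 in restimulated SH-2251 cells. The resting SH-2251 array alone stood apart, below the other 3. The response was thus 1.21-fold in control cells, which was not called, and 2.38-fold with SH-2251. The log2 difference between SH-2251 and control was -0.78 at rest, with a technical SD of 0.204, and 0.19 after restimulation.

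By their brightest probes, the kinases were not called in any of the 4 comparisons. Chuk and Ikbkb encode the catalytic IκB kinases IKKα and IKKβ, Ikbkg their regulatory subunit NEMO, and Map3k14 the kinase NIK. Ikbkb was the flattest of all members, with log2 differences between -0.02 and 0.05 in the 4 comparisons. Chuk was 1.46-fold and 1.35-fold higher after restimulation in control and SH-2251-treated cells, but a dimmer probe gave log2 differences of 0.73 and 1.03, the latter past the 2-fold limit. Map3k14 was 1.18-fold and 1.71-fold higher. Ikbkg had log2 differences of -0.56 and -0.49, but its 3 probes did not point the same way. The other probes gave 0.35 and 0.23 in control cells, so no direction is given for this gene.

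The partners that carry the signal from the antigen receptor to the kinases were both higher after restimulation. Bcl10 stood at 2.20 and 2.33 at rest and at 3.35 and 3.39 after restimulation, or 2.22-fold and 2.08-fold higher in control and SH-2251-treated cells. Malt1, which encodes the paracaspase of the complex, stood at 1.83 in resting control, 1.19 in resting SH-2251, 3.00 in restimulated control and 2.83 in restimulated SH-2251 cells. It rose 2.24-fold in control and 3.13-fold with SH-2251. As with Bcl3, the resting SH-2251 array was the lowest, at a log2 difference of -0.64 from resting control.

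Adaptors and ubiquitin ligases link receptors of the TNF family, and other inputs, to the kinases. Of 8 measured, 4 were called in each treatment. Traf1, an adaptor that is itself a known NF-κB target, had log2 signals of 3.97 and 3.90 at rest and of 6.40 and 6.55 after restimulation. It rose 5.42-fold in control and 6.29-fold with SH-2251, the largest response of the adaptors in both. Birc3, which encodes the ubiquitin ligase cIAP2, stood at 2.68 and 2.74 at rest and at 3.92 and 4.33 after restimulation, a rise of 2.36-fold and 3.00-fold. Its relative Birc2, the gene of cIAP1, was within 1.31-fold between any pair of arrays compared.

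Traf3, which restrains the noncanonical pathway by keeping NIK low, stood at 1.97 and 1.81 at rest and at 3.19 and 2.99 after restimulation. It rose 2.34-fold in control and 2.26-fold with SH-2251. Tank, a TRAF-binding protein, stood at 2.04 and 1.97 at rest and at 3.13 and 3.28 after restimulation, a rise of 2.13-fold and 2.47-fold. A dimmer probe for Tank gave a larger log2 difference in control cells, 1.71 in place of 1.09. Traf2, Traf6 and Ripk1 were not called, with log2 differences between -0.52 and 0.69 over both treatments. The probes for Ripk1, the adaptor kinase of TNF receptor signalling, disagreed in size. In control cells the brightest gave -0.38 and another gave -1.03, the latter past the 2-fold limit.

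Negative feedback genes included the most responsive member. Tnfaip3 encodes A20, a ubiquitin-editing enzyme that switches NF-κB signalling off and is a classical NF-κB target. Its log2 signal was 0.84 in resting control, 0.85 in resting SH-2251, 3.96 in restimulated control and 4.17 in restimulated SH-2251 cells. The resting arrays were nearly equal, and the response was 8.64-fold in control and 9.97-fold with SH-2251. Among all genes compared Tnfaip3 ranked 70th from the highest response in control and 66th with SH-2251. Tnip1 encodes a partner of A20 and stood at 3.29 and 3.17 at rest and at 3.97 and 4.30 after restimulation. Its response was 1.60-fold in control, below the 2-fold limit, and 2.19-fold with SH-2251. Tnip2 and Cyld, which encode another A20-binding protein and a deubiquitinase, were not called. By their brightest probes the log2 differences ran from -0.17 to 0.81. The probes for Cyld disagreed in direction in control cells, where the brightest gave 0.09 and a dimmer one -0.34. With SH-2251 they gave -0.17 and -0.51.

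**Figure D2:**
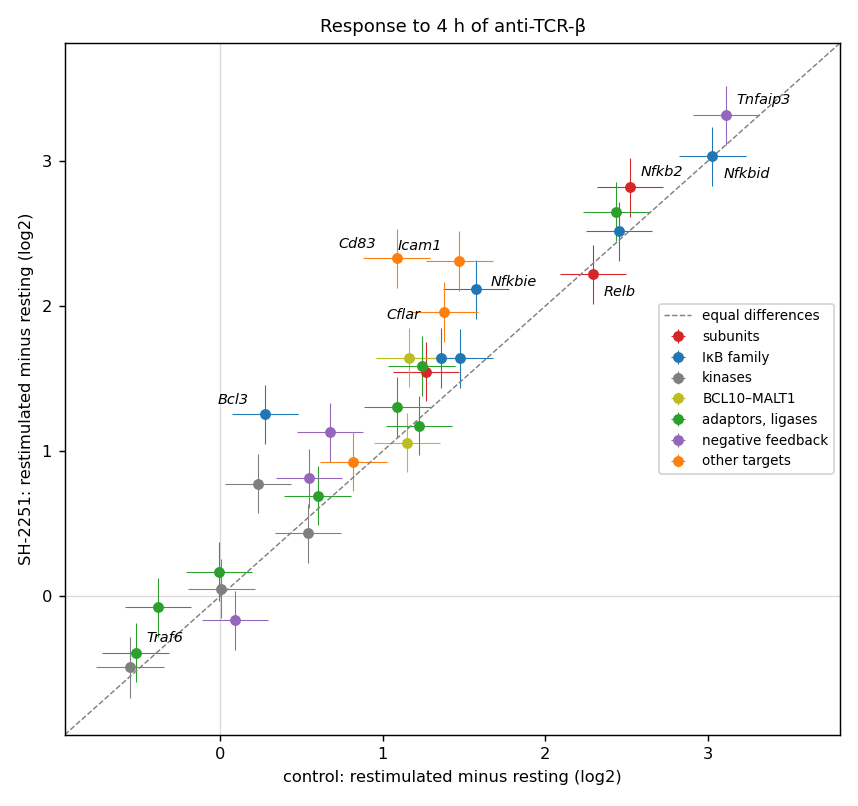
The log2 difference restimulated minus resting is plotted for each of the 31 genes in control cells (x axis) against SH-2251-treated cells (y axis), with bars of 1 technical SD and colours for roles; the dashed line marks equal differences. Tnfaip3 and Nfkbid lie at the upper end near the line, and Cd83, Icam1 and Bcl3 lie farthest above it.

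The remaining members are targets of NF-κB with functions outside the pathway. Cflar encodes c-FLIP, which blocks death receptor signalling. Its log2 signal was 3.14 and 3.03 at rest and 4.52 and 4.99 after restimulation, so that it rose 2.60-fold in control and 3.89-fold with SH-2251. The probes for another Cflar transcript gave larger responses in control cells, 2.44 and 2.19 on the log2 scale in place of 1.38. Ier3, an immediate early gene, was not called, with responses of 1.77-fold and 1.90-fold.

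Icam1 encodes the adhesion molecule that binds LFA-1. Its log2 signal was -1.06 in resting control, -0.69 in resting SH-2251, 0.41 in restimulated control and 1.62 in restimulated SH-2251 cells. It rose 2.77-fold in control and 4.97-fold with SH-2251. Cd83 encodes a surface protein of mature dendritic cells and activated lymphocytes. Its log2 signal was 0.14 in resting control, 0.52 in resting SH-2251, 1.22 in restimulated control and 2.85 in restimulated SH-2251 cells. The response was 2.12-fold in control and 5.03-fold with SH-2251. For both genes the order of the 4 arrays was the same, with the restimulated SH-2251 array well above the rest.

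The second question was what SH-2251 changed within each state. In resting cells no member was at least 2-fold higher with SH-2251, against 2.26% of the 12685 genes compared, and none was at least 2-fold lower, against 2.88%. The median log2 difference of the members was -0.06, as was that of all genes, and 12 of 31 lay above 0, against 42.5% of all genes, a count that became 15 when arrays were scaled to their medians. The differences ran from -0.78 for Bcl3 to 0.38 for Cd83. Bcl3 and Malt1 were the members lower by more than 2 technical SD, against 10.8% of all genes, and no member was higher by as much, against 8.32%.

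In restimulated cells 2 of the 31 members, Cd83 and Icam1, were at least 2-fold higher with SH-2251, against 2.65% of the 12624 genes compared. None was at least 2-fold lower, against 2.76%. Cd83 was 3.08-fold higher, a log2 difference of 1.62 with a technical SD of 0.204, and Icam1 was 2.32-fold higher, a log2 difference of 1.21 with a technical SD of 0.204. Cflar, at 0.47, and Nfkbia, at 0.42, were the other members higher by more than 2 technical SD. The 2 probes for one Cflar transcript gave 0.47 and 0.53, whereas those for the other gave 0.10 and 0.19.

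The members as a group lay slightly higher with SH-2251 after restimulation. Their median log2 difference was 0.16, whereas that of all genes was -0.06, and 23 of 31 lay above 0, against 42.1% of all genes. Most of these differences were within 2 technical SD, since 4 of the 31 were higher by more than that, against 9.09% of all genes. The subunits, with differences of 0.32 for Nfkb2, 0.23 for Rela and 0.13 for Relb, and the feedback gene Tnfaip3, with 0.22, were each within 2 technical SD.

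**Figure D3:**
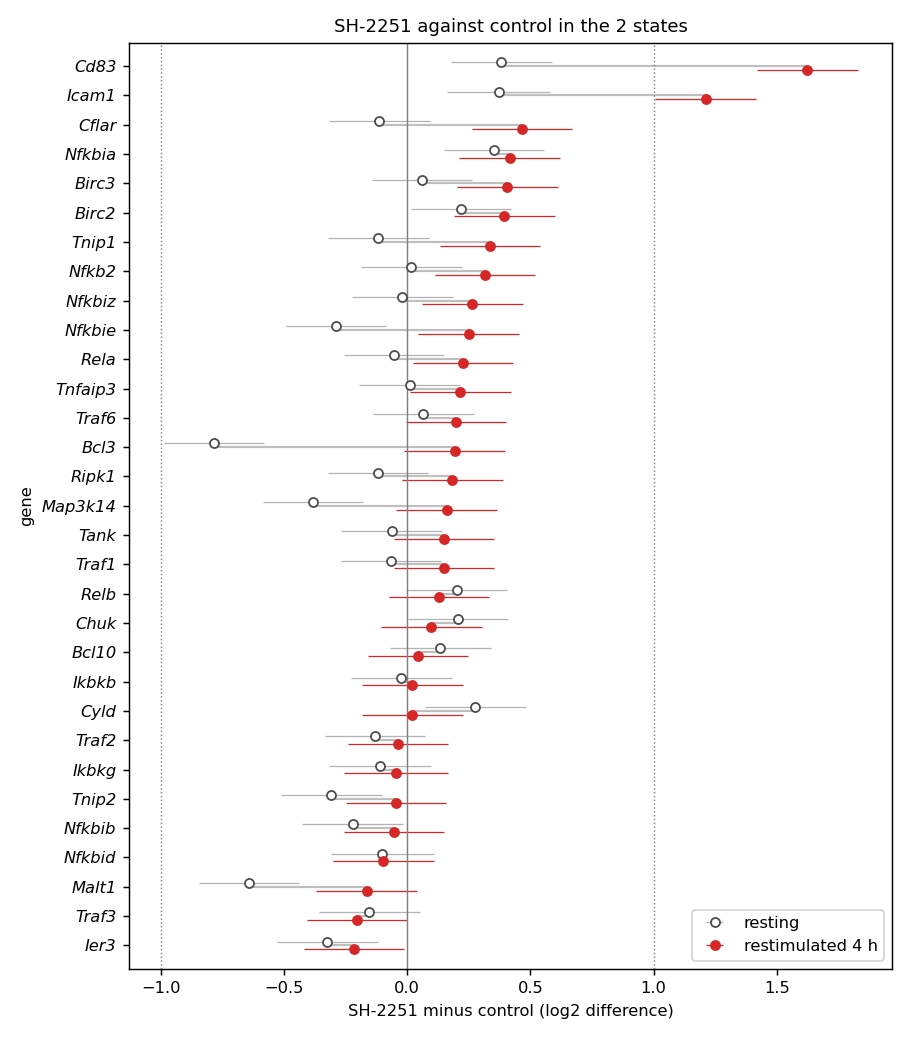
The log2 difference SH-2251 minus control is plotted on the x axis for each of the 31 genes in resting cells (open circles) and restimulated cells (red circles), with bars of 1 technical SD and dotted lines at 2-fold. Cd83 and Icam1 lie past the upper 2-fold line in restimulated cells, no gene lies past a 2-fold line in resting cells, and Bcl3 and Malt1 have the lowest resting values.

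The difference between the SH-2251 effects in the 2 states equals the difference between the 2 responses to restimulation. It was above 0 for 26 of the 31 members, that is, their response was larger with SH-2251, against 52.5% of 11518 genes measured on all 4 arrays. The median was 0.21 in the members and 0.01 in all genes, with a technical SD of about 0.289 for a single gene. Cd83, at 1.24, was the member at or above 1, a value reached by 0.738% of all genes. Bcl3 followed with 0.98, Icam1 with 0.84, Cflar with 0.58, and Nfkbie and Map3k14 with 0.54 each. These came about in different ways. In Cd83, Icam1 and Cflar the larger part was a higher signal with SH-2251 after restimulation, whereas in Bcl3 and Map3k14 it was a lower signal with SH-2251 at rest. The members with a smaller response, Relb, Chuk, Bcl10, Traf3 and Cyld, had values between -0.26 and -0.05. These counts rest on the brightest probe of each gene. For Chuk the dimmer probe gave the larger response with SH-2251. Tank and Ikbkg went the other way. The dimmer Tank probe gave responses of 1.59 with SH-2251 and 1.71 in control. The other Ikbkg probes gave -0.40 with SH-2251 and 0.35 in control, and 0.14 and 0.23. For the other Cflar transcript the responses lay closer together, at 2.57 with SH-2251 and 2.44 in control, and at 2.40 and 2.19.

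All 4 comparisons draw on the same 4 arrays, so the counts for the states and for the responses do not stand apart from one another.

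Some markers of other cell types were also higher on the restimulated SH-2251 array than on the restimulated control array, and others were lower. The summed level of the 7 B cell markers, relative to the 75th percentile, was 40.9 in resting control, 35.6 in resting SH-2251, 33.0 in restimulated control and 45.8 in restimulated SH-2251 cells. Of these, 2 of 7 were at least 2-fold higher with SH-2251 after restimulation, against 2.65% of all genes. The log2 differences were 1.21 for Ms4a1 and 1.19 for Cd74. Cd79a, which defines B cells, was at -0.15 and H2-Ab1 at -0.06. Of the 7, 5 lay above 0. The summed level of the myeloid and dendritic cell markers was between 0.21 and 0.42 on the 4 arrays, and was lowest in restimulated SH-2251 cells. Csf1r, Cd14 and Fcgr3 were above background on all arrays and Itgax, Itgam and Lyz2 on none. With SH-2251, Fcgr3 had log2 differences of -1.11 after restimulation and -1.44 at rest. Csf1r was at -0.07 and -0.58, and Cd14 at 0.07 and -0.14. The CD8 and NK cell markers above background, Cd8a and Klrd1, had log2 differences of 0.97 and 0.60 with SH-2251 after restimulation and of 1.45 and 0.06 at rest. Hba-a1, a haemoglobin gene of red cells, was at 1.28 after restimulation and 1.15 at rest. The T cell markers summed to between 31.4 and 33.98, a sum in which Cd3g had by far the highest signal. With SH-2251, Cd28 had log2 differences of -0.58 after restimulation and -0.39 at rest, and Cd4 of -0.22 and -0.33. Cd3e was at 0.10 and -0.21, and Cd3g at 0.11 and -0.02. Cd83 and Icam1 are expressed by activated B cells as well as T cells, and the part of other cell types in their difference was not tested.

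The wider pathway was described with genes outside the list. Of 33 other signalling genes, such as receptors, adaptors, kinases and ubiquitin-chain enzymes, 32 were measured. In each treatment 2 of the 32 were at least 2-fold higher after restimulation, Traf4 and Rnf11, against 7.24% of all genes in control and 7.08% with SH-2251. In each treatment 1 was at least 2-fold lower, against 7.34% and 6.95%. The median log2 response of the 32 was -0.12 in control and -0.10 with SH-2251. None was called between SH-2251 and control, with log2 differences from -0.36 to 0.47 at rest and from -0.68 to 0.60 after restimulation. Among all genes 2.26% were called higher and 2.88% lower at rest, and 2.65% and 2.76% after restimulation.

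Known NF-κB target genes outside the list were mostly higher after restimulation. They were chosen with earlier results of these data known, so their counts are a description and not a separate check of the members. Of 26 such genes, 22 were above background on all 4 arrays, and the counts are over these. In control cells 17 of the 22 were at least 2-fold higher after restimulation, against 7.24% of all genes, and 1 was lower, against 7.34%. The median log2 difference was 1.55, whereas that of all genes was -0.06. With SH-2251 18 were higher, against 7.08% of all genes, and none was lower, against 6.95%. The median was 1.96, whereas that of all genes was -0.05. At rest 0 of the 22 were called between SH-2251 and control, against 2.26% of all genes higher and 2.88% lower. By more than 2 technical SD, 6 of the 22 were higher with SH-2251 at rest, against 8.32% of all genes. By the same limit 3 were lower, against 10.8%.

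After restimulation 4 of the 22 target genes were at least 2-fold higher with SH-2251, against 2.65% of all genes, and 1 was lower, against 2.76%. Marcksl1, which encodes a MARCKS-like actin-regulating protein, was 1.43 higher on the log2 scale and Pim2, a survival kinase, 1.17 higher. Lta, the gene of lymphotoxin-α, was 1.05 higher and Serpinb9, a granzyme B inhibitor, 1.00 higher. Ccl3, a chemokine gene, had a log2 difference of -1.04, from 3.97 in restimulated control to 2.93 in restimulated SH-2251 cells. At rest Marcksl1 was already 0.97 higher with SH-2251, Serpinb9 0.88, Lta 0.58 and Pim2 0.16, and Ccl3 was at -0.14. In control cells Lta and Pim2 were lower after restimulation, at log2 differences of -1.06 and -0.93, whereas Marcksl1, Serpinb9 and Ccl3 were higher. The median log2 difference of the 22 target genes was 0.02 at rest and 0.38 after restimulation, while that of the signalling genes was -0.05 in both states.

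**Figure D4:**
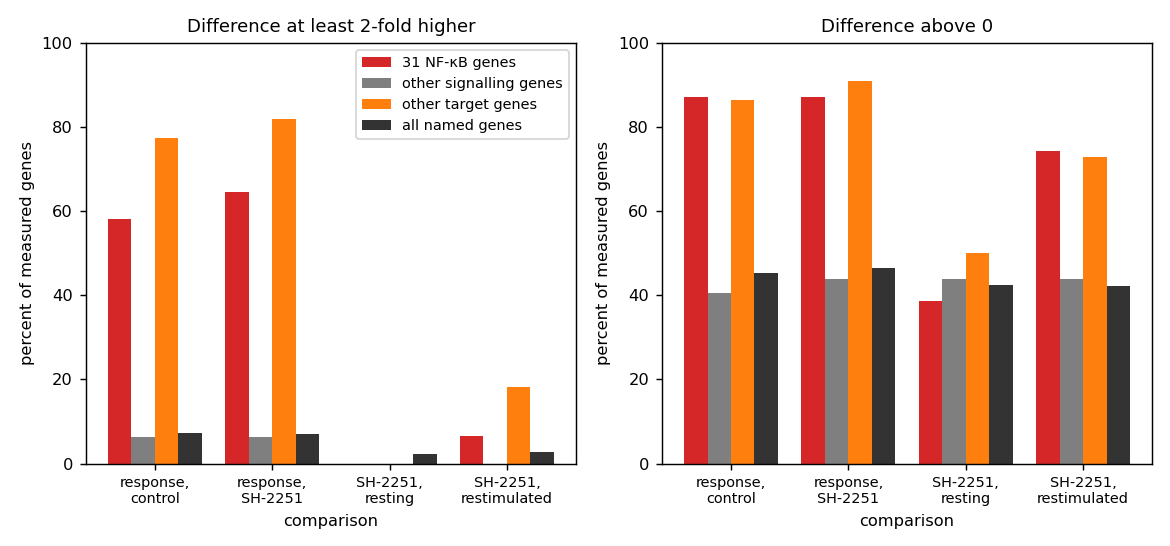
The percent of measured genes at least 2-fold higher (left) and with a difference above 0 (right) is plotted for the 4 comparisons, for the 31 members, the other signalling genes, the 22 other target genes above background on all arrays and all named genes. The members and the other targets stand above all genes in both responses to restimulation and, for differences above 0, in restimulated cells with SH-2251, whereas the other signalling genes stay near all genes.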

How the data were processed

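Total RNA from 4 cultures was hybridised to 4 single-colour Agilent whole mouse genome arrays. The authors deposited the intensity of each spot, corrected for background by Feature Extraction 10.7, and a table of log2 values normalized with the Subio Platform. In these deposited log2 values, over 99.6% of the probes lay within 0.01 of the log2 intensity minus a constant for the array. Control spots and spots the software marked as outliers were left out, and the 75th percentile of each array was subtracted from log2 intensities. Of 41174 probes, 27198 were named through RefSeq accessions (GRCm38.p6), giving 18539 genes. The brightest probe stood for a gene. A gene was compared where 1 or both arrays of a pair showed that probe well above background, with a bound for a dim side, and called when at least 2-fold different. No saturated spot was found.

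The members and the wider lists were chosen with earlier results of these data known. Members changed at least 2-fold in any comparison are given with all 4 values, and the others by range and counts, with up to 6 of them named for their role. Genes of the wider lists are named where SH-2251 changed them at least 2-fold, and Traf4, Rnf11 and the remaining members were named after their values were seen. The alternatives were median scaling, quantile normalization, the deposited log2 values, normexp on median spot signals (offset 50) with and without spots of uneven background, other filters on dim probes, the mean of all probes, outlier spots kept, and thresholds of 1.5-fold and 3-fold. The procedure was tested on simulated data. Protein sequences were not analysed here, and some genes of the wider lists are not reported here. Python 3.11.15, numpy 2.4.6, pandas 2.3.3, matplotlib 3.10.9, R 4.3.3 and limma 3.58.1 were used.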

Additional observations from a re-analysis of the deposited data

How the results depend on the processing

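With 1 array per condition, nothing here separates a difference between conditions from one between cultures. Under the 9 alternatives that kept the 2-fold limit, 16 to 18 members were called higher after restimulation in control cells and 18 to 20 with SH-2251, and the same number as in the report, 0 at rest and 2 after restimulation, were higher with SH-2251. At a 3-fold limit, 6 members were called after restimulation in control cells and 14 with SH-2251, and 1 was higher with SH-2251 after restimulation. At a 1.5-fold limit, 2 members were lower with SH-2251 at rest. The response was larger with SH-2251 for 25 to 26 members. Cd83 was 1.54 to 1.67 and Icam1 1.17 to 1.26 higher with SH-2251 after restimulation, on the log2 scale. Over these alternatives, 883 values of named members moved by less than the technical SD and 17 by more, and no called value changed sign. Among the 17 was the response of Nfkbid in control cells, 2.52 under normexp in place of 3.03. The other filters on dim probes could not move a member, since all were above background on every array. The deposited log2 values are nearly the same intensities minus a constant. Each of these, and outlier spots kept, moved 0 of 100 values. Part of the 883 was therefore fixed in advance and is no measure of stability. On the resting SH-2251 array, normexp fitted a background of -151.7, and 7.42 without spots of uneven background. All 31 members were above background on every array. Between scalings and background corrections, 12 to 15 members lay above 0 with SH-2251 at rest and 23 to 25 after restimulation. No paired analysis was possible because each condition has 1 array and the labels give no replicate numbers.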
